A study of Mus musculus with 14 samples.

Results

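The Ly6 surface antigen family was followed through activated mouse CD4+ T cells that lacked histone deacetylase 1 (HDAC1), with or without loss of an *Hdac2* allele. The 7 members were *Ly6c1*, *Ly6c2*, *Ly6a*, *Ly6i*, *Ly6e*, *Ly6d*, and *Ly6g*, taken by gene name or, where a library had no named row, by an assembled locus sharing at least 0.8 of the joint span with the annotated gene. All 7 had a value in all 14 libraries, among 43951 genes with a value in every library of the first experiment and 33475 in the second. The family was chosen by the FPKM differences between mutant and WT in the first experiment, so its values there are a description without a test, and the second experiment was tested. The choice was also made with values of the second experiment known, so its tests are not independent support.

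The first experiment compared 4 HDAC1cKO-HDAC2HET samples (HDAC1f/f HDAC2f/+ x CD4cre) with 4 WT samples. Here both *Hdac1* alleles and 1 *Hdac2* allele were deleted by Cre under the *Cd4* promoter, which acts from T cell development in the thymus onward. The second compared 3 HDAC1cKO samples (HDAC1f/f x CD4cre), with both *Hdac1* alleles deleted and *Hdac2* intact, with 3 WT samples of its own. As a general rule, the study used male and female mice aged 6 to 12 weeks, with littermates as controls. It does not give the sex behind each library. *Xist*, expressed in females, was on in every library of the first experiment, at a lower level in the mutant libraries. The second experiment is cited from earlier work, for which these details and the cell sorting are not given. In the study's methods, magnetic depletion of other cells used antibodies that included anti-Gr1, an antibody against products of this gene family. From the remainder, naive CD4+ T cells (CD25- CD44lo CD62L+) were sorted. They were activated for 3 days with plate-bound antibodies to CD3ε and CD28 plus IL-2, without polarizing cytokines, and cells of the second experiment were then restimulated with anti-CD3 for 12 hours. Per the study, the samples of the first experiment were independent cell batches, 4 of each genotype, prepared on a single day. For the second, the labels number the samples without saying what separates them. Its p-values thus measure the spread between these samples, which may be technical in part. *Xist* was at 42.9 and 33.2 FPKM in its WT replicates 1 and 3 and at 0.0188 in WT replicate 2. Its WT samples therefore did not all come from a single animal, while the HDAC1cKO samples, all *Xist*-negative, leave this unknown. In bulk RNA, more cells that express a gene and more RNA per cell cannot be told apart.

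Ly6 proteins are small, disulfide-rich proteins that a glycosylphosphatidylinositol anchor holds at the cell surface. Many are used as markers of blood cells: the Ly-6C antigen (*Ly6c1*, *Ly6c2*) marks monocytes and subsets of effector and memory T cells, Ly-6G (*Ly6g*) marks neutrophils, and *Ly6a* encodes Sca-1, a marker of hematopoietic stem cells that also rises on activated T cells. Several members are known targets of interferon signaling. Histone deacetylases remove acetyl groups from histone tails, and such removal is widely linked to lower transcription.

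The members lie on chromosome 15 of the mm10 genome build. In the order of the chromosome they were *Ly6d* (74762056 to 74763620, minus strand), *Ly6e* (74955051 to 74959905, plus strand), *Ly6i* (74979534 to 74983430, minus strand), *Ly6a* (74994877 to 74998031, minus strand), *Ly6c1* (75044018 to 75048830, minus strand), *Ly6c2* (75108158 to 75111970, minus strand), and *Ly6g* (75155240 to 75159126, plus strand). Between *Ly6c1* and *Ly6c2* the coding sequences were 97.7% identical over 396 coding bases each. *Ly6a* shared 86.4% with *Ly6i*, 83.2% with *Ly6g*, 82.0% with *Ly6c1*, and 81.7% with *Ly6c2*. *Ly6e* and *Ly6d* stood apart, with 50.5% to 53.8% identity of *Ly6e* to the other 6 members and 47.1% to 52.5% of *Ly6d*. The libraries were 50-base single reads, and 31.7% of the 50-base windows of the longest coding *Ly6c1* transcript were also present in a *Ly6c2* transcript. Windows shared with any other gene made up 36.7% for *Ly6c1*, 33.0% for *Ly6c2*, 10% for *Ly6a*, 4.97% for *Ly6i*, and 0.448% for *Ly6g*, and 0 of the 2232 windows of *Ly6e* and of the 695 of *Ly6d* were shared. Levels of *Ly6c1* and *Ly6c2* are therefore uncertain to the extent that reads from their common parts were divided between them.

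Promoter sequences from RefSeq (GRCm38.p6) were at hand for 3 of the members. The 250 bases before the transcription start are shown for the near-identical pair, of which both members were higher in both mutants, and for *Ly6g*, which was at or near 0 in every library. Capitals mark the longest run of letters common to all 3.
Ly6c1 (chr15:75048838-75049087, minus strand): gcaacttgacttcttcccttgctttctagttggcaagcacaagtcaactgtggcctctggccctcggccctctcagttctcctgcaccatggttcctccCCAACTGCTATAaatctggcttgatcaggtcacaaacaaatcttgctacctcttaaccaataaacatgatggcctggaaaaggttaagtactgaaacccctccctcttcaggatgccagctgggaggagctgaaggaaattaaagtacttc
Ly6c2 (chr15:75111972-75112221, minus strand): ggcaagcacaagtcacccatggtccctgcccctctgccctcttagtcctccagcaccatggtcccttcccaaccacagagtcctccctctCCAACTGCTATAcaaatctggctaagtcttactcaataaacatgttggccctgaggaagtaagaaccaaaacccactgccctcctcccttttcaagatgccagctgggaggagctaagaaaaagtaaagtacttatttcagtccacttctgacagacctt
Ly6g (chr15:75155011-75155260, plus strand): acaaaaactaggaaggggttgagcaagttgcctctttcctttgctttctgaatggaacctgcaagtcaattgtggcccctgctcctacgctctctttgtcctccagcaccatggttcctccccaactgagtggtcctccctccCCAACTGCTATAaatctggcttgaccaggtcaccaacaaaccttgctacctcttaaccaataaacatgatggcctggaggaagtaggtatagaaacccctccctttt

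The 3 promoters were related in sequence but less so than the genes behind them. Where they could be aligned, *Ly6c1* and *Ly6c2* were 71.9% identical over 228 columns, *Ly6c1* and *Ly6g* 75.1% over 229, and *Ly6c2* and *Ly6g* 65.5% over 206. The longest run without a difference was 37 bases between *Ly6c1* and *Ly6g* and 20 between *Ly6c1* and *Ly6c2*. Both strands were searched for the letters TTCNNNGAA (a STAT element, GAS), for the interferon-stimulated response element (ISRE), and for TGTGGT (a RUNX motif). The only match was a RUNX motif on the minus strand in *Ly6c2*, at positions -179 to -174 from the start. RUNX letters were in 14% of the 32851 promoters of the table at the same length, GAS letters in 7.02%, and ISRE letters in 2.98%. A match is a description of letters, and neither binding nor acetylation was measured.

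*Hdac1* mRNA checked the labels. It averaged 78.1 ± 1.44 FPKM (fragments scaled to transcript length and to library size; SD, n = 4) in WT and 8.30 ± 1.89 in HDAC1cKO-HDAC2HET samples, where *Hdac2* was at 0.599 of its WT level. In the second experiment *Hdac1* averaged 75.6 ± 4.78 in WT (SD, n = 3) and 10.1 ± 1.82 in HDAC1cKO samples, and *Hdac2* was at 1.11 of its WT level. The estimated depth was 25500000 to 60100000 fragments per library in the first experiment and 29300000 to 49600000 in the second. *Xist*, expressed from the inactive X chromosome of females, was on in all 8 libraries of the first experiment. Its levels did not overlap there, at 58.9 to 65.2 FPKM in WT and 26.0 to 33.7 in HDAC1cKO-HDAC2HET libraries. Whether this reflects the sex of the cells or the genotype was not tested. In the second experiment it was on only in WT replicates 1 and 3, so that sex and genotype were partly mixed in that experiment.

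Of the 7 members, 5 had higher levels in both mutants and 2 were at or near 0 throughout. *Ly6c1*, *Ly6c2*, *Ly6i*, *Ly6a*, and *Ly6e* each had every HDAC1cKO-HDAC2HET library above every WT library, and each again had every HDAC1cKO library above its WT libraries. Among all genes tested, such a separation upward was seen for 23.4% in the first experiment and 9.93% in the second. *Ly6c1* was under 1 FPKM in every WT library and at least 36.6 in HDAC1cKO-HDAC2HET libraries, *Ly6a* was among the most abundant mRNAs of the mutants, and *Ly6e* differed by less than 2-fold. A call required a difference of 2-fold or more together with a Benjamini-Hochberg adjusted p not above 0.05 (limma). In the first experiment 5.59% of the 15142 genes tested were called higher, and 4 of the 5 tested members were among them, which the choice of members had fixed. In the second only 2 of 14028 genes (0.0143%) were called higher, 9 were called lower (0.0784% in either direction), and none of the 5 tested members was called, although 1995 genes had an unadjusted p under 0.05. With equal sample medians that split was 5 higher and 8 lower, and in the first experiment 980 and 676 in place of 846 and 844.

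**Figure D1:**
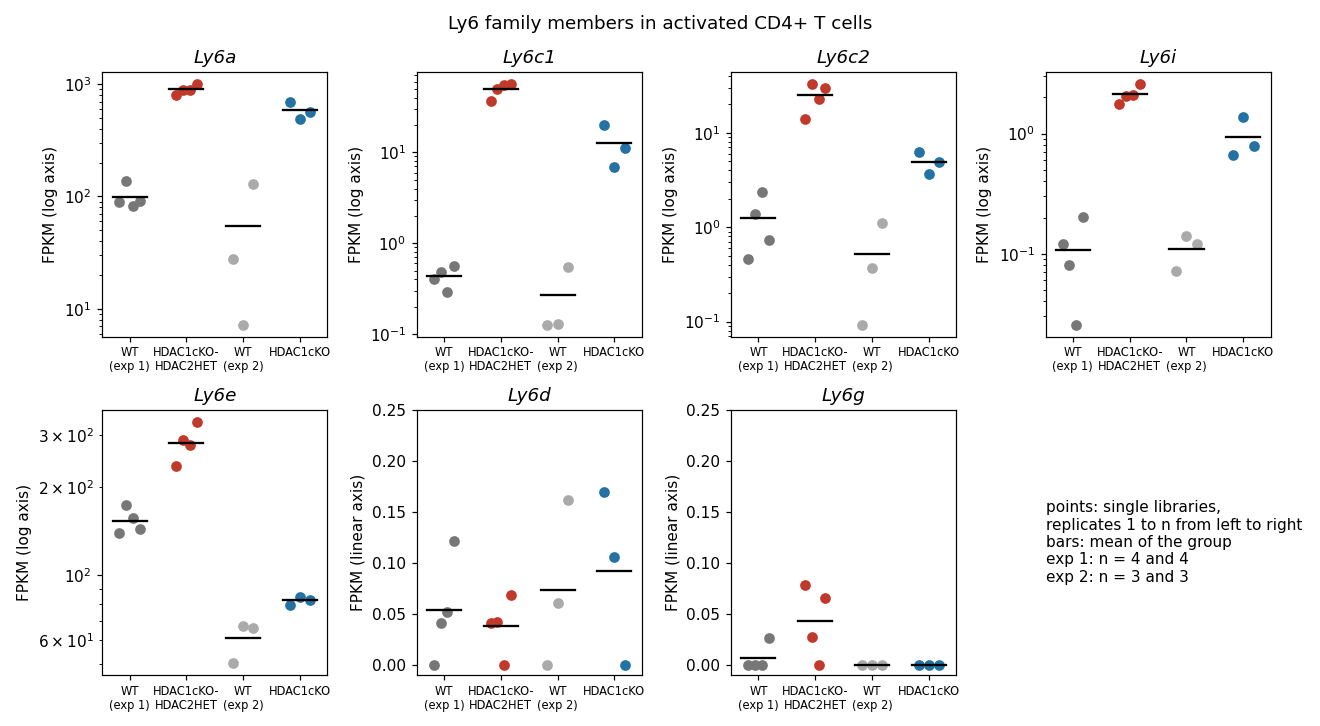
FPKM of each member in each library (log axis for the 5 expressed members, linear axis for *Ly6d* and *Ly6g*), with points for single libraries and bars for group means. The 5 expressed members have every mutant library above the WT libraries of the same experiment, while *Ly6d* and *Ly6g* stay below 0.2 FPKM.

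*Ly6c1*, which encodes a form of the Ly-6C antigen, had the largest fold change of the family in the first experiment, and in the second the largest except with a pseudocount of 1 (3.34 on the log2 scale, against 4.21 for *Ly6a*), with sex as a covariate (5.69 against 6.31), and with named rows only, where it was not tested. Its FPKM was 0.400, 0.487, 0.295, and 0.558 in WT replicates 1 to 4 and 36.6, 49.7, 54.7, and 56.5 in HDAC1cKO-HDAC2HET replicates 1 to 4. The lowest mutant library was 65.6 times the highest WT library, and the log2 fold change was 6.54 (SE 0.19). In the second experiment the WT libraries had 0.127, 0.128, and 0.553 FPKM and the HDAC1cKO libraries 20.2, 6.99, and 11.2. All 3 mutant libraries lay above WT again, by a log2 fold change of 5.18 (SE 0.56). The call was narrowly missed, at an adjusted p of 0.0595 (limma), and an exact permutation test gave p = 0.1, the smallest value that 3 against 3 samples allow. Without WT replicate 3, the highest of the WT libraries, the log2 fold change was 5.69 and the adjusted p 0.022, and without any other library of the experiment the adjusted p was 0.0964 to 0.249 (limma). The confidence bounds in the files corresponded to about 1.73 to 7.54 fragments in a WT library, against 169 to 1304 in a mutant library. The WT levels are therefore imprecise, and the fold is large against any of them.

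*Ly6c2*, the near-identical partner of *Ly6c1*, was listed as the more abundant of the pair in 6 of 7 WT libraries and the less abundant in every mutant library. Its FPKM was 0.460, 1.39, 2.38, and 0.727 in WT and 14.1, 32.9, 22.7, and 30.0 in HDAC1cKO-HDAC2HET replicates 1 to 4. These groups did not overlap, with a log2 fold change of 4.38 (SE 0.49). For the second experiment it was 0.0927, 0.374, and 1.11 in WT and 6.22, 3.64, and 4.85 in HDAC1cKO libraries. Again no value overlapped, but the WT libraries differed 12-fold among themselves. The log2 fold change was 3.35 (SE 0.66) and the adjusted p 0.172 (limma), with p = 0.1 in the exact permutation test. It was 2.69 without WT replicate 1 (adjusted p 0.124) and 4.02 without WT replicate 3 (adjusted p 0.0606, limma), and the range without any other library was 3.16 to 3.54.

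The listed ratio between the pair differed with genotype in both experiments. The ratio of *Ly6c1* to *Ly6c2* FPKM was 0.870, 0.350, 0.124, and 0.768 in WT libraries and 2.60, 1.51, 2.41, and 1.89 in HDAC1cKO-HDAC2HET libraries. In the second it was 1.37, 0.343, and 0.499 in WT and 3.24, 1.92, and 2.31 in HDAC1cKO libraries. Every mutant ratio was above every WT ratio of its experiment. The WT ratios are imprecise, since *Ly6c1* had only about 2.27 to 7.54 fragments in WT libraries of the first experiment. In the second, the WT ratio of 1.37 rests on about 1.73 fragments of *Ly6c1* and 1.99 of *Ly6c2*. How reads from the shared windows were assigned was not tested, and the *Ly6c1* loci of the experiments were not alike: they ran from 75044018 to 75048830 in the first and from 75045017 to 75048837 in the second.

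*Ly6a* (Sca-1) showed the largest difference in absolute level. It was at 88.6, 138, 81.4, and 91.8 FPKM in WT and at 804, 896, 884, and 1006 in HDAC1cKO-HDAC2HET replicates 1 to 4. The groups were far apart, with a ratio of means of 8.99 and a log2 fold change of 3.19 (SE 0.16). By rank among 19075 protein-coding genes, it stood between 533 and 974 from the top in WT libraries and between 60 and 80 in mutant libraries. The second experiment had *Ly6a* at 28.0, 7.20, and 129 FPKM in WT and at 696, 493, and 567 in HDAC1cKO libraries. The mutant libraries differed 1.41-fold among themselves but the WT libraries 17.9-fold, and the lowest mutant library was still 3.83 times the highest WT library. The log2 fold change was 4.28 (SE 0.98) with an adjusted p of 0.195 (limma) and p = 0.1 in the exact permutation test. Without WT replicate 3 it was 5.34 with an adjusted p of 0.0532, and without WT replicate 2 it was 3.27 with an adjusted p of 0.314 (limma). With sex as a covariate, a fit that sets the HDAC1cKO libraries against WT replicate 2, the log2 fold change was 6.31 and the adjusted p 0.0899 (limma).

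*Ly6i*, a close relative of *Ly6a* that lies next to it, was also higher in both mutants, at a level of a few FPKM at most. Its FPKM was 0.121, 0.080, 0.0256, and 0.202 in WT and 1.75, 2.04, 2.08, and 2.59 in HDAC1cKO-HDAC2HET replicates 1 to 4. No values overlapped, and the log2 fold change was 3.48 (SE 0.27). It was 0.072, 0.139, and 0.120 in WT and 0.666, 1.37, and 0.791 in HDAC1cKO libraries. All mutant libraries again lay above WT, by 2.27 on the log2 scale (SE 0.34), with an adjusted p of 0.122 (limma) and p = 0.1 in the exact permutation test. With a pseudocount of 1 in place of 0.1 the log2 fold change in the first experiment was 1.49, since WT values were small beside that constant.

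*Ly6e*, which encodes the antigen TSA-1, was expressed in every library and differed least. It was at 140, 174, 157, and 144 FPKM in WT and at 236, 289, 278, and 333 in HDAC1cKO-HDAC2HET replicates 1 to 4. The ranges were separate, but the ratio of means was 1.85 and the log2 fold change 0.88 (SE 0.11), under the 2-fold limit. For the second experiment the values were 50.2, 66.9, and 66.1 in WT and 78.9, 84.6, and 82.7 in HDAC1cKO libraries. The ratio of means was 1.34 and the log2 fold change 0.44 (SE 0.13), with an adjusted p of 0.244 (limma) and p = 0.1 in the exact permutation test. As *Ly6e* shares no window with another gene, its values do not depend on how reads of paralogs were divided.

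*Ly6d* and *Ly6g* were not expressed at a level these libraries could measure, and neither reached the mean of 0.1 FPKM required for testing. *Ly6d*, a marker of lymphoid progenitors and B cells, was listed at 0 to 0.121 FPKM in WT and at 0 to 0.0688 in HDAC1cKO-HDAC2HET libraries. The second experiment had 0 to 0.161 in WT and 0 to 0.170 in HDAC1cKO libraries. The bounds placed *Ly6d* at no more than 3 fragments in any library. *Ly6g*, the neutrophil antigen, was listed at 0 in all 6 libraries of the second experiment and in 3 of 4 WT libraries of the first, with 0.0265 in the other. HDAC1cKO-HDAC2HET replicates 1 to 4 had 0.0788, 0.0272, 0, and 0.0659 FPKM, each with a lower bound of 0. A difference between groups was not detectable for either gene at this depth.

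**Figure D2:**
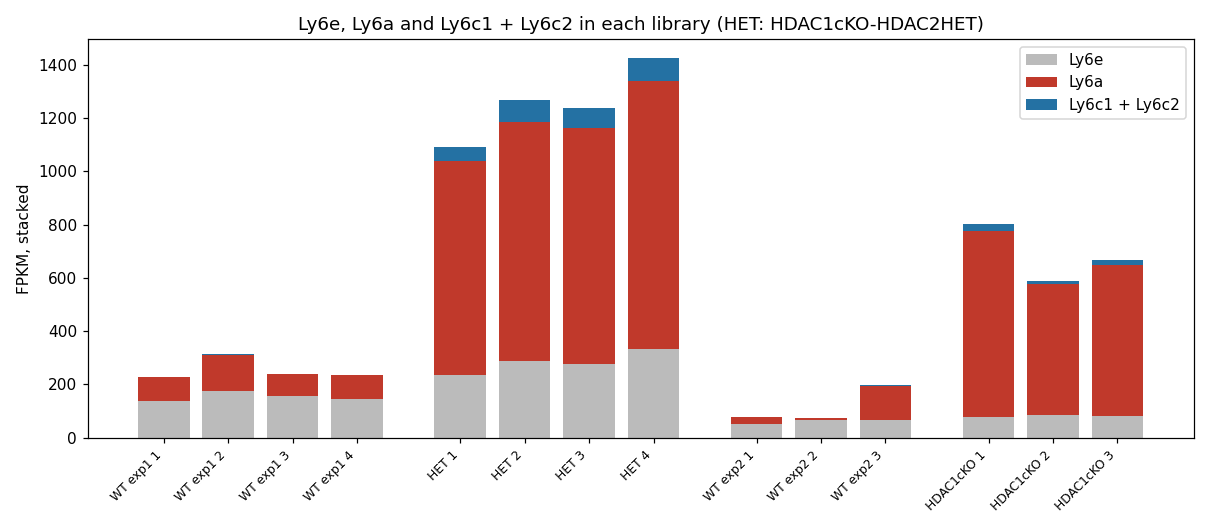
Stacked FPKM of *Ly6e*, *Ly6a*, and *Ly6c1* with *Ly6c2* in each library, with the total on the vertical axis from 0. *Ly6e* is the larger part in 6 of 7 WT libraries, and *Ly6a* in all 7 mutant libraries and in WT replicate 3 of the second experiment.

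The make-up of the family's mRNA thus differed between the genotypes. Summed over the 7 members, FPKM was 229 to 314 in WT and 1092 to 1429 in HDAC1cKO-HDAC2HET libraries. *Ly6e* made up 55.5% to 65.1% of that sum in WT and 21.6% to 23.3% in the mutant, while *Ly6a* made up 33.8% to 43.9% and 70.4% to 73.6%. Sums in the second experiment were 78.5, 74.8, and 197 in WT and 802, 590, and 667 in HDAC1cKO libraries. *Ly6a* was 35.6%, 9.62%, and 65.4% of the sum in WT and 83.6% to 86.8% in HDAC1cKO libraries. The share of *Ly6c1* and *Ly6c2* together was at most 1.11% in any WT library, 4.64% to 6.50% in HDAC1cKO-HDAC2HET, and 1.80% to 3.29% in HDAC1cKO libraries.

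Members varied together among some libraries of a group. HDAC1cKO-HDAC2HET replicate 1 was the lowest of its group for all 5 expressed members. HDAC1cKO replicate 1 was the highest and replicate 2 the lowest of their group for *Ly6c1*, *Ly6c2*, and *Ly6a*, and the order of this pair was turned for *Ly6i* and *Ly6e*. WT replicate 3 of the second experiment was the highest of its group for *Ly6c1*, *Ly6c2*, and *Ly6a*, but not for *Ly6i* or *Ly6e*. That library was *Xist*-positive, as was WT replicate 1, the lowest of the group for *Ly6c1*, *Ly6c2*, *Ly6i*, and *Ly6e*, while for *Ly6a* the *Xist*-negative WT replicate 2 was the lowest.

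By order of group means, HDAC1cKO-HDAC2HET was the highest for each of the 5 expressed members. For *Ly6c1*, *Ly6c2*, *Ly6a*, and *Ly6i* the HDAC1cKO group came next, then both WT groups, whose ranges overlapped, and no other neighbours in that order overlapped. For *Ly6e* the order was HDAC1cKO-HDAC2HET (284), WT of the first experiment (154), HDAC1cKO (82.0), and WT of the second (61.1), with no overlap between neighbours. Genotype, restimulation, and sample preparation differ at once between the experiments, so these orders compare levels and not the deletions. The loci behind the values differ as well for *Ly6c1*, *Ly6c2*, *Ly6a*, and *Ly6i*, but not for *Ly6e*. *Ly6a*, for example, ended at 74998031 in the first experiment and at 74997634 in the second. The fold changes side by side, first experiment before second, were 6.54 and 5.18 on the log2 scale for *Ly6c1*, 4.38 and 3.35 for *Ly6c2*, 3.48 and 2.27 for *Ly6i*, 3.19 and 4.28 for *Ly6a*, and 0.88 and 0.44 for *Ly6e*. Whether they differ was not tested.

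One fit over all 14 libraries, which lets the first experiment add to the estimate of the spread, gave more calls in the second. It called *Ly6c1* (adjusted p 6.41e-05), *Ly6i* (0.00183), *Ly6a* (0.00469), and *Ly6c2* (0.00884) higher in HDAC1cKO cells, where 1.15% of 13293 genes were called higher (limma). *Ly6e*, at 0.44 on the log2 scale, had an adjusted p of 0.0573. These calls rest on the assumption that the less variable libraries of the first experiment describe the spread of the second.

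**Figure D3:**
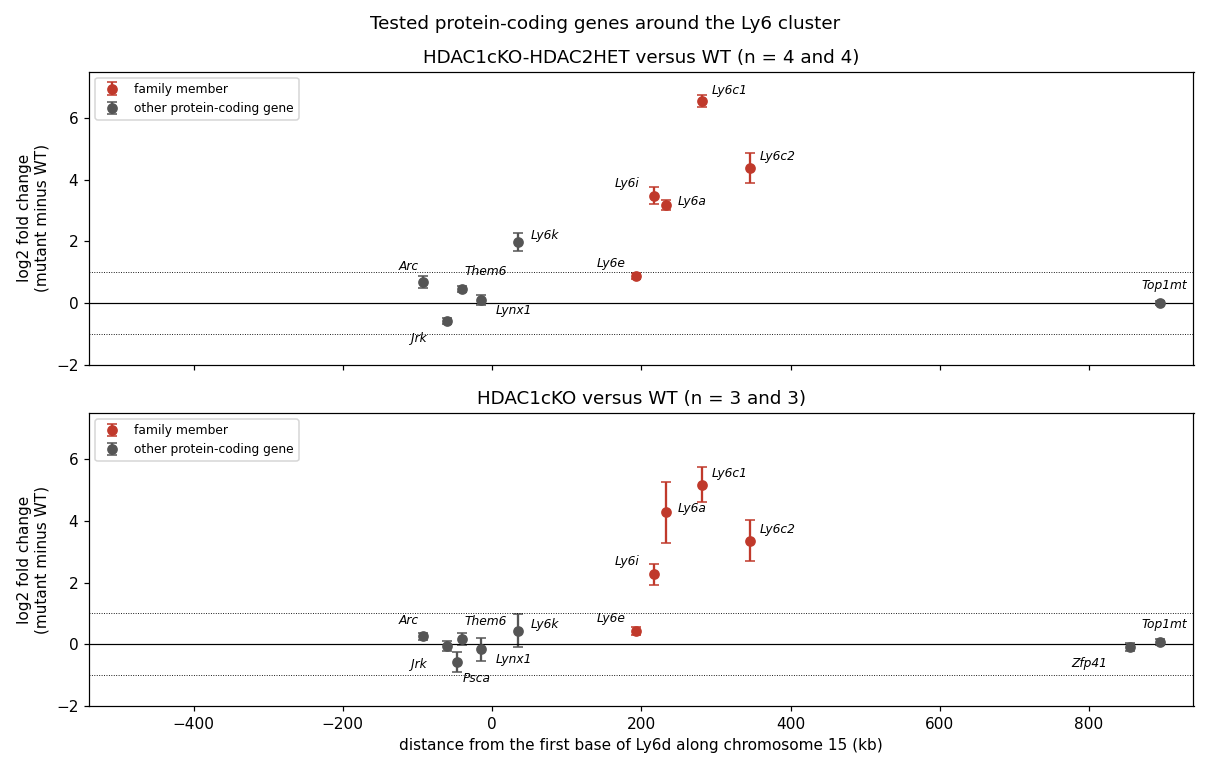
Log2 fold change (mutant minus WT) with its standard error for each tested protein-coding gene within 500 kb of the members, by distance from the first base of *Ly6d* in kb. The members from *Ly6i* to *Ly6c2* stand between 2.27 and 6.54 in both panels, *Ly6e* below 1, and *Ly6k* at 1.97 in the first experiment and 0.44 in the second.

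Along the chromosome, *Ly6e*, *Ly6i*, *Ly6a*, *Ly6c1*, and *Ly6c2* follow one another, and the neighbours on both sides are given beside them. Of 24 other protein-coding genes within 500 kb of the members, 19 had a value in the first experiment and 6 were tested. *Ly6k*, a family gene between *Ly6d* and *Ly6e*, was the only neighbour called (1.04 FPKM in WT, 4.58 in HDAC1cKO-HDAC2HET, log2 fold change 1.97, SE 0.29, adjusted p 0.000735 by limma). Below the 2-fold limit, *Arc* (0.68) and *Them6* (0.46) were higher and *Jrk* (-0.58) was lower at an adjusted p of at most 0.05 (limma), and *Top1mt*, beyond the other end of the cluster, was at 0.0079. Of the 20 neighbours with a value in the second experiment, 8 were tested and none was called, with *Ly6k* at 0.44 (SE 0.54). At an unadjusted p under 0.05 there were 4 of 6 neighbours in the first experiment, beside 8549 of all 15142 genes tested, and 0 of 8 in the second, beside 1995 of 14028. Inside the cluster, the pseudogene *Gm5960*, between *Ly6c1* and *Ly6c2*, was listed at 0 in the WT group and at a mean of 0.526 FPKM in HDAC1cKO-HDAC2HET cells, and the noncoding RNA *Gm28068*, between *Ly6a* and *Ly6c1*, went from 0.0811 to 0.253. Both were chosen for mention after their values were seen.

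Other genes of the Ly6/uPAR family were called in both directions in the first experiment. Of 33 listed, 7 were tested in the first experiment, and 3 rose (*Plaur*, *Ly6k*, and *Cd59a*) while *Lypd6b* fell at the 2-fold limit. *Plaur*, the urokinase receptor, went from 0.819 to 6.91 FPKM (log2 fold change 2.94, SE 0.26), *Cd59a*, an inhibitor of the complement attack complex, from 0.131 to 0.450 (1.23, SE 0.23), and *Lypd6b* from 4.68 to 0.629 (-2.72, SE 0.11). The median of the 7 was 0.101 on the log2 scale, against -0.0458 over all genes tested, of which 5.59% were called higher and 11.2% in either direction. None of 9 tested genes was called in the second experiment, with a median of 0.0371 against -0.0288. An unadjusted p under 0.05 was found for 2 of them, beside 1995 of all 14028 genes tested. *Lypd6b* was at -0.89 there (SE 0.19, adjusted p 0.182 by limma), with all HDAC1cKO libraries below WT.

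**Figure D4:**
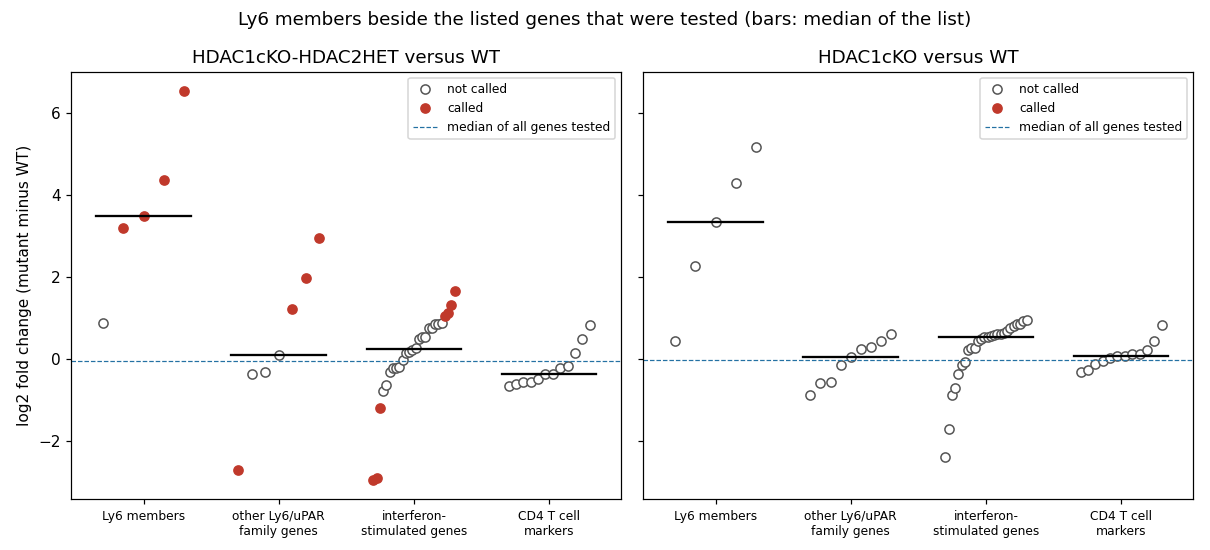
Log2 fold change (mutant minus WT) of each tested gene of 4 lists in both experiments, with filled points for called genes, bars for the median of a list, and a dashed line for the median of all genes tested. The tested members lie between 0.88 and 6.54 in the first experiment and between 0.44 and 5.18 in the second, and the interferon-stimulated genes lie between -2.95 and 1.65 in the first experiment and between -2.40 and 0.95 in the second.

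Interferon-stimulated genes, listed since members of the family are known targets of that pathway, changed in both directions in the first experiment. Of 26 tested, 4 rose and 3 fell at the 2-fold limit, beside 5.59% of all genes called higher and 11.2% in either direction. At an adjusted p of at most 0.05 (limma), 11 were higher and 4 lower, against 24.2% and 27.6% of all genes tested. *Bst2* (tetherin) went from 90.9 to 286 FPKM (log2 fold change 1.65, SE 0.18) and *Iigp1*, an interferon-induced GTPase, from 68.7 to 169 (1.30, SE 0.13). *Ifit3* went from 3.22 to 0.329 (-2.95, SE 0.43) and *Rtp4* from 6.14 to 0.751 (-2.90, SE 0.47). The median over the list was 0.245. None of the 26 was called in the second experiment, and the median was 0.528. An unadjusted p under 0.05 was found for 3 of them, beside 1995 of all 14028 genes tested. *Bst2* was at 0.95 there (SE 0.29, adjusted p 0.255 by limma) and *Ifit3* at -2.40 (SE 1.19, adjusted p 0.416). All HDAC1cKO libraries lay above WT for 7 of the 26 genes and below for 1, beside 9.93% of all genes tested above.

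Some members are antigens of cells other than CD4+ T cells, so markers of such cells were summed. The 15 of 18 myeloid markers with a value summed to 0.192 to 0.458 FPKM in WT and 0.248 to 0.531 in HDAC1cKO-HDAC2HET libraries, with *S100a8*, *S100a9*, *Ngp*, and *Elane* at 0 in all 8. In the second experiment the sums were 5.17 to 5.93 in WT and 4.19 to 5.99 in HDAC1cKO, of which *Cd68* alone gave 3.88 to 5.60, with *S100a8*, *S100a9*, and *Lyz2* at 0 in all 6. The myeloid markers summed were not the same in both. *Cd68* and *Ltf* entered only the sums of the second experiment, and *Spi1* and *Mpo* only those of the first. Myeloid sums therefore cannot be compared between the experiments. The 7 of 8 NK cell markers with a value summed to 0.112 to 0.436 in the first experiment and to 0.273 to 1.45 in the second. B cell markers summed to 0.595 to 1.06 in WT and 2.91 to 4.55 in HDAC1cKO-HDAC2HET libraries, through *Cd79b* (0.293 to 2.76), and to 1.00 to 1.20 and 0.892 to 1.58 in the second. *Cd8a* and *Cd8b1* summed to 3.28 to 5.96 in WT and 11.7 to 15.2 in HDAC1cKO-HDAC2HET libraries, and to 3.80 to 4.86 and 6.52 to 7.30 in the second experiment. Nearly all of this was *Cd8b1*. *Cd8a* was at 0.039 to 0.0858 FPKM in WT and 0.315 to 0.574 in HDAC1cKO-HDAC2HET libraries, and at 0.0082 to 0.12 and 0.252 to 0.299 in the second experiment. The part of the CD8 and B cell markers in the levels of the Ly6 members was not tested. The 12 markers listed for CD4+ T cells were all present in every group. Their sums were 2890 to 3470 FPKM in the first experiment and 2760 to 3390 in the second. In the first experiment 9 of them were lower and 2 higher at an adjusted p of at most 0.05 (limma), none by 2-fold. Of all genes tested, 27.6% were lower and 24.2% higher at that adjusted p. All but *Cd4* are expressed by T cells in general, so the sums do not separate CD4+ from CD8+ T cells. *Cd4* itself was at 208 to 218 FPKM in WT and 160 to 168 in HDAC1cKO-HDAC2HET libraries. In the second experiment it was at 170 to 242 in WT and 202 to 232 in HDAC1cKO libraries.

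Across all 14 libraries, the protein-coding genes most like each member were taken as those with the smallest root mean squared difference of log2 values after each gene was centered on its own mean, among 10279 genes. For *Ly6c1* these were *Ifng* (0.851), which encodes IFN-γ, *Klrk1* (0.930), which encodes the receptor NKG2D, and *Prf1* (1.04), which encodes perforin, beside an own variation of 3.11. For *Ly6c2* they were *Ajuba* (0.811), *Madcam1* (0.897), and *Prf1* (0.909), beside 2.29. For *Ly6a* they were *Tbkbp1* (0.449), *Serpina3f* (0.602), and *Ajuba* (0.761), beside 2.10. *Ly6i* was closest to *Arhgef25* (0.472), *Fkbp11* (0.475), and *Inka1* (0.531), beside 1.57, and *Ly6e* to *Actg1* (0.254), *Blvrb* (0.259), and *Rtkn2* (0.269), beside 0.864. No member was among the closest of another. The 14 libraries share genotype and experiment within a group, so these distances describe the pattern over 4 groups more than 14 separate measurements. Differences in locus between the experiments, as for *Ly6a*, *Ly6c1*, *Ly6c2*, and *Ly6i*, enter these distances too.

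The rows behind the values were not of the same kind in all libraries. *Ly6e* and *Ly6c1* were taken from unnamed assembled loci in all 8 libraries of the first experiment, and *Ly6a* by name in all 7 WT libraries and from unnamed loci in all 7 mutant libraries. In 5 of 7 mutant libraries the assembly gave a single identifier to 2 or more members, and in HDAC1cKO-HDAC2HET replicate 4 to 4 members (*Ly6i*, *Ly6a*, *Ly6c1*, and *Ly6c2*), which did not occur in a WT library. Each of the members still had a row and a value of its own under that identifier, with a locus sharing at least 0.997 of the joint span. The part of this difference in the fold changes was not tested. Restricted to rows listed by name, no member could be tested in the first experiment.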

How the data were processed

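RNA-Seq was measured in 14 libraries of activated CD4+ T cells, and the labels gave each library's group and number. Per the study's methods, the authors mapped 50-base single reads to mm10 with TopHat and computed the deposited FPKM values with Cufflinks. The tools listed in the labels include others, and their role is not given in the sources used here. These values already account for depth and length, and read counts were not analysed here. The files give loci that differ from library to library, so a gene's locus, and with it its FPKM, can differ between them.

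Unnamed loci were matched to GENCODE vM21 genes (GRCm38, the build of the files). For each experiment, log2(FPKM + 0.1) was fitted separately (limma 3.58.1, R 4.3.3, variances following an intensity trend) over genes averaging 0.1 FPKM or more, and fold changes are on that scale, which understates those of low genes. Standard errors are those of the fit. Exact permutation tests were 2-sided (20 arrangements for 3 against 3). Depth was estimated from the confidence bounds at low values, where 87.0% to 91.9% of low genes came out within 0.05 of a whole fragment number. The fit was tested on simulated data with known answers and independent noise, without a sex or batch difference. A minimum recovery of the known changes was required for the first experiment only, so this does not show how many changes the second could detect. The members, the lists, and the rule for examples (the largest absolute log2 fold changes of a list) were chosen with earlier results of these data known. Coding sequences and promoters were aligned with Biopython 1.88. Figures were drawn with matplotlib 3.10.9. Protein sequences were not used here.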

Additional observations from a re-analysis of the deposited data

Results flagged for a closer look

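Unnamed assembled loci that overlap no annotated gene were present just 3′ of *Ly6a*, between *Gm37042* and *Ly6a*, a signal in rows that no comparison above uses. They were found in 3 of 4 HDAC1cKO-HDAC2HET libraries (replicates 1 to 3) and in 3 of 3 HDAC1cKO libraries, and in 0 of 7 WT libraries. There were 6 such loci in each mutant group, at 1.48 to 9.78 FPKM in HDAC1cKO-HDAC2HET and 0.559 to 5.23 FPKM in HDAC1cKO libraries. They ran from 74991808 to 74993598 on chromosome 15 in the first experiment and to 74993480 in the second, and their ends lay 1278 to 2881 bases from *Ly6a*. *Ly6a* itself was higher in the same libraries, and the part of its reads in these loci was not tested. The loci were noticed after the values had been seen.

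*Ly6g* in WT of the first experiment had a replicate apart from the others: replicate 4 was at 0.0265 FPKM and the other 3 at 0, a gap over range of 1.00. The bounds of that value correspond to about 0.127 fragments. Each of the 7 members was checked in both groups of 4 samples, 14 checks in all. For normally distributed values, chance alone sets a sample apart in about 1 of 20. That rate does not apply to *Ly6g* here, since a single value above 0 always gives a gap over range of 1.00.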

How the results depend on the processing

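Members called in HDAC1cKO-HDAC2HET cells, a count that the choice of members fixed, were 4 in every fit that tested them, 4 to 4 over the 8 fits without 1 library. Members called in HDAC1cKO cells went from 0 to 4 with both experiments in 1 fit, and were 0 to 1 over the 6 fits without 1 library, the 1 being *Ly6c1* without WT replicate 3. Over genes averaging 1 FPKM or more the count was 1, again *Ly6c1*, which passed that filter only through the HDAC1cKO libraries and had to differ, so this is no support. No member's log2 fold change turned its sign. Genes called in the first experiment, 1690, became 742 (416 higher, 326 lower) with a pseudocount of 1, 1032 (530 and 502) with a mean FPKM of at least 1, 417 (225 and 192) with named rows only, and 1603 to 1707 without 1 library. Those called in the second, 11, became 21 (9 and 12) with a mean FPKM of at least 1, 76 (29 and 47) with the sex covariate, 311 (153 and 158) with both experiments in 1 fit, 7 (1 and 6) with named rows only, and 11 to 53 without 1 library, the most without WT replicate 3. The cause of these shifts was not tested. The sex covariate could not be fitted in the first experiment, where all libraries were *Xist*-positive.

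Over all genes, samples that share a replicate number did not deviate together (correlations of -0.006 to 0.064 in the first and -0.016 to 0.013 in the second experiment). The labels do not say whether they share more than a number, and correlations over all genes cannot exclude a shared litter or handling. With the replicate number as a block, genes called were 1640 in the first and 5 (0 higher, 5 lower) in the second experiment, and members called remained 4 and 0. The block lowered the standard error of every tested member and raised its adjusted p (limma) in both experiments.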
